A study of Homo sapiens with 12 samples.

Results

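In Huh7 cells that overexpressed VPS72, 11192 FLAG regions were at least 700 bp wide and overlapped no FLAG peak of the control cells. They were chosen from the deposited FLAG peak lists of the 2 conditions on chromosomes 1 to 22 and X, by the width of the overexpression peak (end minus start) and by the lack of a control peak of any width over it. The overexpression list held 551907 FLAG peaks in all, and 33697 of them were at least 700 bp wide. The other 22505 wide regions overlapped a control FLAG peak and are called shared wide regions here. FLAG width and the FLAG lists of both conditions made the choice, so FLAG values at these regions are a description without a test. The histone and input libraries took no part in the choice.

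VPS72, also named YL1, is a histone chaperone subunit of the SRCAP and TIP60 chromatin remodelling complexes. It holds the histone variant H2A.Z, and SRCAP exchanges H2A for H2A.Z in nucleosomes near active promoters and enhancers. H2A.Zac is the acetylated form of H2A.Z, which is found at active regulatory elements. H3K27ac marks active promoters and enhancers, and H3K4me1 marks enhancers whether active or primed.

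Huh7 is a human hepatocellular carcinoma line. All cells carried a FLAG tag knocked in before the stop codon of the endogenous VPS72 gene, and came from colonies that had survived blasticidin selection; whether 1 or several colonies were used is not given. For overexpression they were infected for 24 h with a lentivirus encoding VPS72-FLAG. Control cells were infected for 24 h with an empty vector, named lenti-HA in the titles. Chromatin immunoprecipitation with sequencing (ChIP-seq) was done with antibodies to FLAG, H3K27ac, H3K4me1, H2A.Z and H2A.Zac, with an input for each condition, so there was 1 library per antibody and condition and 12 in all. FLAG therefore read the endogenous protein in the control, and the endogenous and viral proteins together with overexpression. A FLAG ChIP from untagged cells was not analysed here, so a FLAG region is not shown to be bound by VPS72.

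Each group being 1 library, differences between the conditions lack a replicate check and were not tested. Depth, recovered from the peak values, was 4.38 M (mega) reads for control FLAG, 3.07 M for overexpression FLAG and 17.9 to 25.02 M for the histone libraries. Every list had been kept at a p of 0.05. Intervals in brackets are Wilson 95% intervals and cover counting error only. Coordinates are hg19, counted from 1. Band names are those of the hg19 cytogenetic map, and no region is assigned to a gene because a gene annotation of that build was not used here.

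Most of these wide regions had very few FLAG reads at the summit. The background of the comparison was high: 84.5% of all overexpression FLAG peaks, and 33.2% of the wide ones, overlapped no control FLAG peak. In the other direction, 15.1% of the wide control FLAG peaks (4734 of 31357) overlapped no overexpression peak. At the summit, the base with the most overlapping reads, the median was 2 reads (interquartile range 2 to 3, highest 30). The shared wide regions had a median of 7 reads (5 to 12, highest 425), and the 4734 wide control-only regions a median of 6.

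By number of summit reads, 1845 of the 11192 regions (16.5%) had 1 read, 4618 (41.3%) had 2 and 2440 (21.8%) had 3. A further 1308 (11.7%) had 4 reads, 836 (7.47%) had 5 to 6, 116 (1.04%) had 7 to 9 and 29 (0.259%) had 10 or more. The shared wide regions lay at the other end of this scale, with 7837 of 22505 (34.8%) at 10 reads or more. The share of wide regions without a control peak dropped as more reads were asked for. It was 33.2% at 1 read or more, 17.9% at 3 or more, 5.23% at 5 or more and 0.369% at 10 or more.

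**Figure D1:**
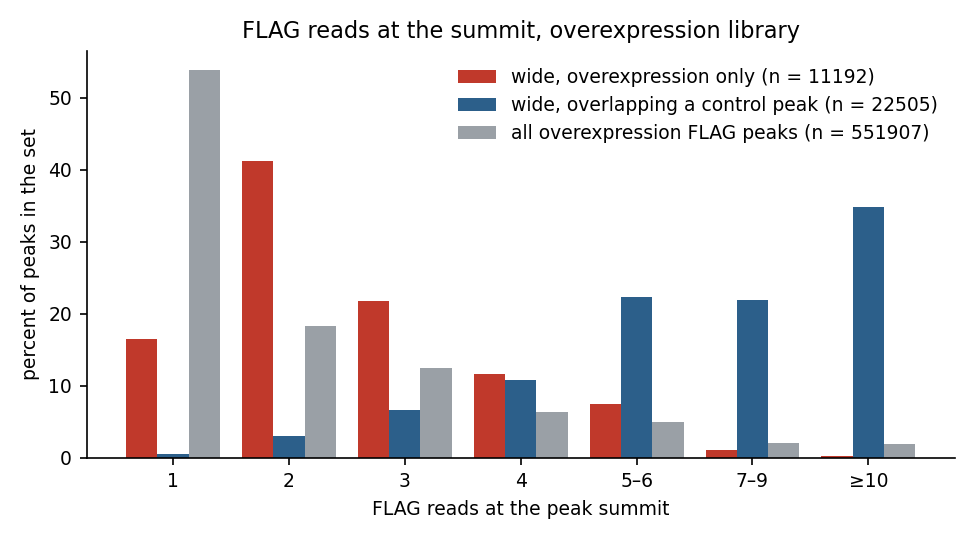
Percentage of FLAG peaks (vertical axis) in each class of FLAG reads at the summit (horizontal axis) in the overexpression library. The wide regions found only with overexpression (red) are most often at 2 reads (41.3%), the wide regions that overlap a control peak (blue) at 10 or more (34.8%), and all overexpression FLAG peaks (grey) at 1 read (53.8%).

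The authors' peak values were correspondingly low. The deposited fold of a region, its summit over the local background with 1 read added to both, had a median of 2.26 at the overexpression-only regions and 4.50 at the shared ones. A q of 0.05 or less was reached by 1296 regions (11.6%), against 17090 shared wide regions (75.9%) and 8.39% of all overexpression FLAG peaks. The 1296 had at least 4 summit reads each, with a median of 5. Local background was within 1% of the lowest value of the library in 55.6% of the overexpression-only regions and in 5.91% of the shared ones. Its median was 1.01 and 2.27 times the genome average.

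The lowest signal that could be deposited differed between the FLAG libraries. At the lowest background, 1 read gave a −log10 p of 1.36 with overexpression and of 1.11 in the control, where the limit was 1.30. In the overexpression list 53.8% of peaks had 1 read, and in the control list the lowest number was 2 (15069 peaks, 8.18%). Expressed over each library's genome average, 1 overexpression read came to 3.04 and 2 control reads to 4.38. The 1845 regions with 1 read therefore lay below the lowest level at which a control FLAG peak was listed. How many regions were missed in the control for this reason was not tested.

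Greater width did not come with many reads at the summit: the median was 2 in each width class from 700 to 1199 bp and 3 from 1200 bp. Summit reads give the depth at 1 base, and the reads along the whole width of a region were not counted. The median width was 794 bp (interquartile range 725 to 903, highest 2003) against 969 bp for the shared wide regions. The shortest overexpression FLAG peak, taken as the length to which a read was extended, was 290 bp, and the smallest gap between neighbouring peaks was 143 bp, so gaps of up to 142 bp had been joined. At these lengths 2 reads that do not overlap can span up to 722 bp. Of the 1845 regions with 1 summit read, 1304 (70.7%) were no wider than that, and the widest of the 1845 was 1750 bp. The lack of a control peak was itself less common at greater width. It was 94.6% for peaks of 290 bp, 68.9% for 500 to 699 bp, 52.2% for 700 to 799 bp, 21.9% for 1000 to 1199 bp and 5.12% from 1200 bp.

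Exactly 700 bp was the width of 127 regions, with a median of 2 summit reads (interquartile range 1 to 2, highest 7). Just outside the limit fell 127 overexpression-only peaks of 699 bp, with a median of 1 read (1 to 3, highest 7). Of those just inside, the highest fold was at 2p25.3 (chromosome 2, 2796454 to 2797153) with 6 reads and a fold of 4.06, followed by regions at 2q34 and 6q22.31 with 5 reads each. Of those just outside, the highest folds were at 7q34 (chromosome 7, 138825804 to 138826502), 1p36.22 and 2q31.1, each with 6 reads and with folds of 4.43, 4.37 and 4.21.

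The overexpression-only regions were spread over the genome far more evenly than the shared ones. Chromosome bands are classed by Giemsa stain, in which light bands are gene-rich and dark bands gene-poor and late-replicating. The light bands held 4.14 overexpression-only regions per Mb and the darkest (gpos100) 3.38, while the shared wide regions went from 11.98 to 1.99 per Mb. The darkest bands make up 16.4% of the genome and held 15.1% (14.4 to 15.7) of the overexpression-only regions, 4.40% (4.14 to 4.67) of the shared ones and 17.8% of all overexpression FLAG peaks. Of all wide regions in the darkest bands, 63.0% had no control peak, against 25.7% in the light bands.

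Regions with more reads lay more often in light bands. The darkest bands held 21.3% (19.5 to 23.2) of the overexpression-only regions with 1 read, 17.9% (16.9 to 19.1) of those with 2, 12.4% (11.1 to 13.7) of those with 3 and 7.08% (6.10 to 8.20) of those with 4 or more. In the light bands the share went the other way, from 40.4% at 1 read to 60.6% (58.6 to 62.6) at 4 or more. Shared wide regions with 4 or more reads were in light bands still more often, at 69.5% (68.8 to 70.1). A dependence of band placement on the number of reads was thus present within both sets.

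**Figure D2:**
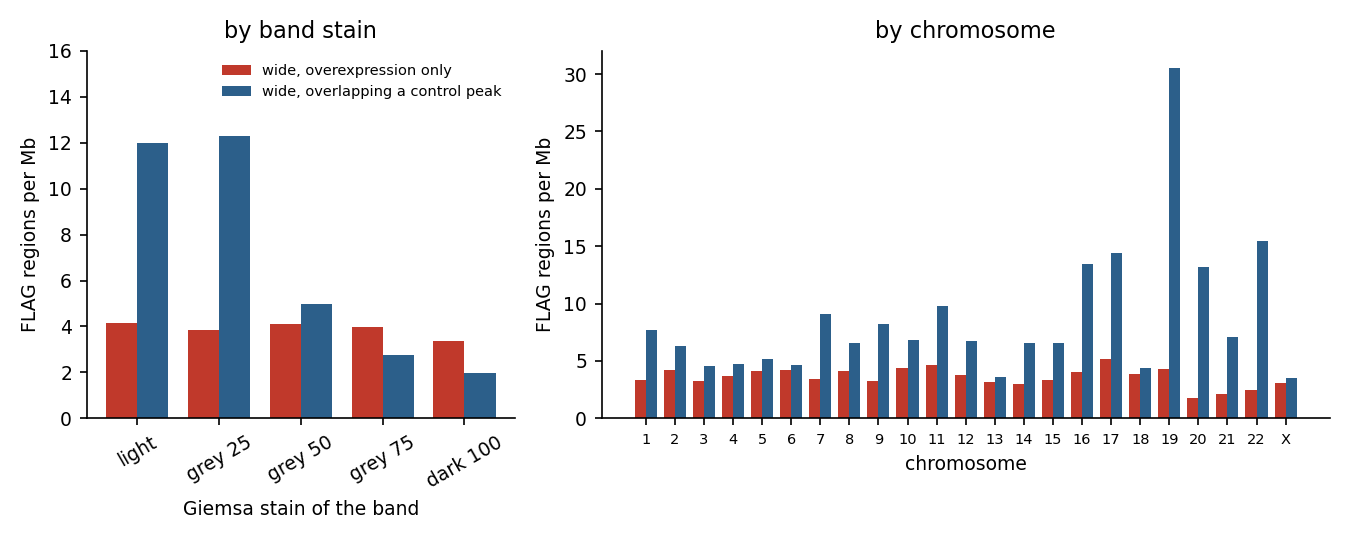
Number of wide FLAG regions per Mb (vertical axes) by Giemsa stain of the chromosome band (left) and by chromosome (right), for regions found only with overexpression (red) and regions that overlap a control peak (blue). The red bars stay between 3.38 and 4.14 per Mb over the 5 stains, while the blue bars go from 11.98 in light bands to 1.99 in the darkest and reach 30.5 on chromosome 19.

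Between chromosomes the density ranged from 1.75 regions per Mb on chromosome 20 (110 regions) to 5.17 on chromosome 17 (420). Chromosome 19, which is dense in genes, had 4.28 overexpression-only regions per Mb against 30.5 shared ones. The share of wide regions without a control peak was lowest on chromosomes 20 (11.7%), 19 (12.3%) and 22 (13.9%) and highest on chromosome 6 (47.8%). Chromosomes 20, 19 and 22 also had the highest median local background of control FLAG peaks, at 3.35, 2.41 and 2.34 times the genome average, against 1.30 on chromosome X. The part of that background in these differences was not tested.

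The median gap from a region to the next of the set was 150418 bp (interquartile range 57186 to 332075). Such gaps were 1 kb or less in 60 cases and 10 kb or less in 608. Whether the regions lay closer together or further apart than their number alone would give was not tested. Of 851 bands, 93.3% held at least 1 region. Among the 674 bands of 2 Mb or more, the densest was 8q13.1 with 25 regions (12.5 per Mb), followed by 3p21.1 with 22 (10.5 per Mb) and 17q23.2 with 28 (10.0 per Mb). Band 1q21.3, the band of the VPS72 gene itself, held 17 (3.62 per Mb), and 17p11.2, the band of SREBF1, held 17 (2.74 per Mb). Regions in centromeric bands numbered 64 (0.572%), against 178 shared wide regions (0.791%) and 3877 of all 551907 overexpression FLAG peaks. Of the overexpression-only regions, 353 (3.15%) lay within 2 Mb of a chromosome end, where 3.03% of the genome lies.

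The control list held 184114 FLAG peaks. The median gap from a region to the nearest control FLAG peak was 6832 bp (interquartile range 2171.5 to 17546, highest 399995). A control FLAG peak lay within 1 kb of 1597 regions (14.3%). Whether these gaps are shorter than a list of that length gives elsewhere in the genome was not tested. Regions near a control FLAG peak lay on histone peaks more often. Of the 826 regions with a control FLAG peak within 500 bp, 18.9% were on a control peak of at least 1 histone mark, against 7.24% of the 635 regions with none within 50 kb. The 826 had a median of 3 summit reads and the 635 a median of 2, and the part of the reads in this difference was not tested.

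Most of the overexpression-only regions lay on no peak of the 4 histone marks in either condition: 9256 of 11192 (82.7%), against 11513 of 22505 shared wide regions (51.2%). Regions on at least 1 mark numbered 1301 in the control (11.6%, 11.04 to 12.2) and 1020 with overexpression (9.11%, 8.59 to 9.66), and 385 (3.44%) were on a mark in both conditions. Among the shared wide regions the shares on at least 1 mark were 38.5% in the control and 33.3% with overexpression. Among all overexpression FLAG peaks, whose median width is 290 bp, they were 9.82% and 8.46%. The 4734 wide control-only regions were on a control mark in 31.7% (30.4 to 33.1) and on an overexpression mark in 26.02% (24.8 to 27.3). With histone peaks limited to a q of 0.05 or less the order turned, to 216 overexpression-only regions (1.93%) in the control and 324 (2.89%) with overexpression. It also turned at the shared wide regions (15.9% and 17.8%) and over all overexpression FLAG peaks (2.97% and 3.99%). With the FLAG summit inside a histone peak, the overexpression-only shares were 5.00% (4.61 to 5.42) and 4.15% (3.79 to 4.53). Those of all overexpression FLAG peaks were higher, at 5.95% and 5.48%.

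Each mark covered few of the overexpression-only regions. Control H2A.Z covered 7.19% (6.73 to 7.69) of them and overexpression H2A.Z 2.09% (1.84 to 2.37). H2A.Zac covered 2.89% (2.59 to 3.21) in the control and 3.06% (2.75 to 3.39) with overexpression, and H3K27ac 2.06% (1.81 to 2.33) and 2.72% (2.43 to 3.03). Both conditions are read at the same regions, so these intervals do not compare the conditions. H3K4me1 covered 2.76% (2.47 to 3.08) and 3.87% (3.53 to 4.24). At the shared wide regions the same shares were 25.9% and 14.3% for H2A.Z, 17.8% and 15.3% for H2A.Zac, 8.95% and 10.6% for H3K27ac, and 15.7% and 18.7% for H3K4me1. The intervals of the 2 sets did not overlap for any of the 4 marks in either condition.

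**Figure D3:**
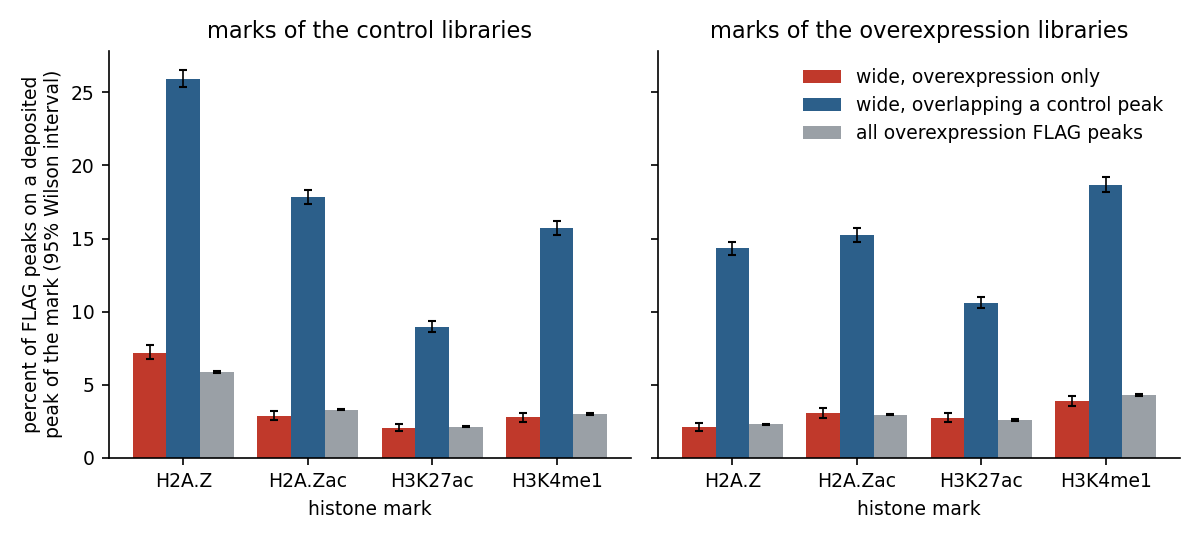
Percentage of FLAG peaks (vertical axis) on a deposited peak of each histone mark in the control (left) and with overexpression (right), with 95% Wilson intervals. The wide regions found only with overexpression (red) stay between 2.06% and 7.19%, below the wide regions that overlap a control peak (blue) at each mark. They are near all overexpression FLAG peaks (grey), which are narrower, with a median width of 290 bp against 794 bp.

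The marks were set beside the FLAG reads, since weakly supported regions make up most of the set. At overexpression-only regions the share on any control mark was 6.99% (5.92 to 8.25) at 1 read, 8.47% (7.70 to 9.30) at 2, 11.7% (10.5 to 13.02) at 3, 17.5% (15.5 to 19.7) at 4 and 26.0% (23.1 to 29.03) at 5 to 6. The shared wide regions had 10.3% (8.30 to 12.8) at 2 reads, 21.9% (19.9 to 24.1) at 3, 29.2% (27.4 to 31.05) at 4 and 35.9% (34.6 to 37.3) at 5 to 6. At an equal number of reads from 3 to 6, the overexpression-only regions were thus on a control mark less often, with intervals that did not overlap. At 7 to 9 reads the shares were 36.2% (28.03 to 45.3) and 44.4% (42.98 to 45.7), and the intervals overlapped.

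For marks of the overexpression libraries, the intervals of the 2 sets overlapped at 1 read, at 2 and at 10 or more. The shares at 1 read were 5.80% (4.82 to 6.96) of the overexpression-only regions and 5.61% (2.60 to 11.7) of the shared ones. From 3 to 9 reads these marks followed the same order as the control marks. At 3 reads they covered 9.22% (8.14 to 10.4) of the overexpression-only regions and 19.1% (17.2 to 21.2) of the shared ones, and at 5 to 6 reads 22.01% (19.3 to 24.9) and 31.8% (30.5 to 33.1). At 7 to 9 reads, with 116 overexpression-only regions, the shares were 18.1% (12.2 to 26.1) and 38.4% (37.02 to 39.7), and these intervals did not overlap. The shared regions were wider in these classes. Their medians were 833 against 810 bp at 3 reads, 910 against 821 bp at 5 to 6 and 992 against 820 bp at 7 to 9. Counted only where the FLAG summit itself lay inside a control mark, which takes the width out, the shares at 3 reads were 5.12% (4.32 to 6.07) and 12.3% (10.7 to 14.07). With the summit inside an overexpression mark, the shares at 5 to 6 reads were 11.5% (9.50 to 13.8) and 18.4% (17.3 to 19.5). At 7 to 9 reads they were 15.5% (10.0 to 23.2) and 22.6% (21.5 to 23.8), and these intervals overlapped.

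**Figure D4:**
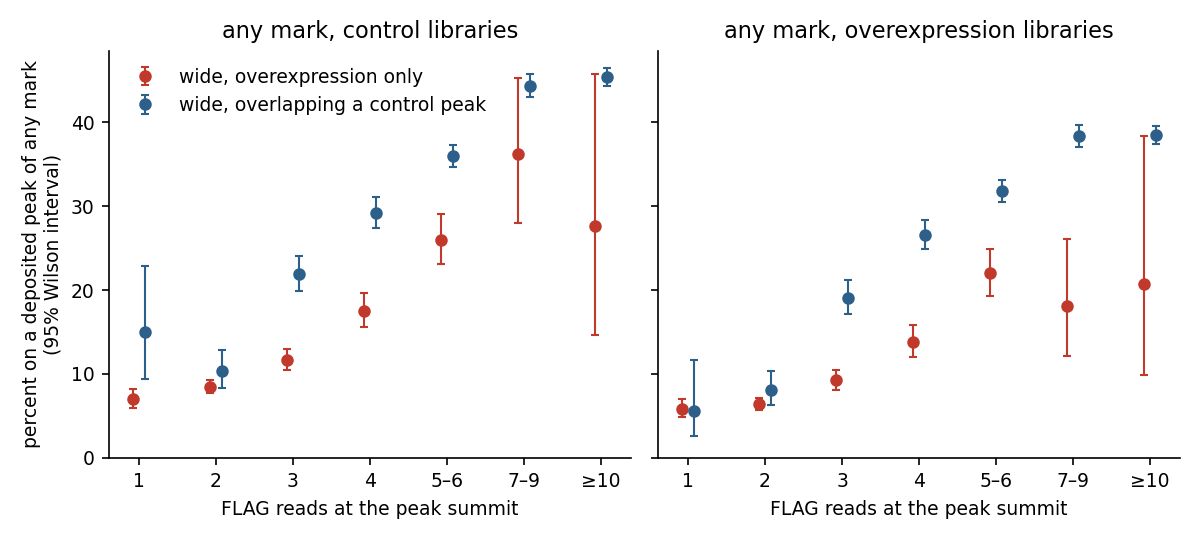
Percentage of wide FLAG regions on a peak of at least 1 histone mark (vertical axis, 95% Wilson intervals) by FLAG reads at the summit (horizontal axis), for control marks (left) and overexpression marks (right). In both sets the shares are higher at 5–6 reads than at 2, and from 3 to 6 reads the regions found only with overexpression (red) lie below those that overlap a control peak (blue).

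Between the conditions, H2A.Z peaks over these regions were more often those of the control. Of the 11192 regions, 697 (6.23%) had an H2A.Z peak only in the control and 126 (1.13%) only with overexpression. Over all overexpression FLAG peaks the shares were 4.39% and 0.821%. The H2A.Z list itself was shorter with overexpression, at 57951 peaks against 182213, a ratio of 0.318, and the number of regions on H2A.Z had a ratio of 0.291. Limited to histone peaks with a q of 0.05 or less, the ratios were 0.541 for the list and 0.545 for the regions. At that limit 61 regions had an H2A.Z peak only in the control and 16 only with overexpression, where all overexpression FLAG peaks gave 0.786% and 0.178%. The ratio at the overexpression-only regions was thus near that of the whole list. At the shared wide regions it was 0.552 over all deposited peaks and 0.659 at a q of 0.05 or less.

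Counted over all deposited peaks, the 3 other marks were nearer to equal in number between the conditions. An H2A.Zac peak was present only with overexpression at 224 regions (2.00%) and only in the control at 205 (1.83%), where all overexpression FLAG peaks gave 1.18% and 1.53%. This order turned at a histone q of 0.05 or less, with 13 regions only under overexpression and 50 only in the control (0.104% and 0.657% over all peaks). For H3K27ac the numbers were 213 (1.90%) and 139 (1.24%), with 1.38% and 0.928% over all peaks. At a q of 0.05 or less they were 18 and 14, with 0.126% and 0.251% over all peaks. For H3K4me1 they were 312 (2.79%) and 188 (1.68%), with 2.77% and 1.48% over all peaks. At a q of 0.05 or less the H3K4me1 numbers were 187 (1.67%) and 8 (0.0715%), with 2.12% and 0.129% over all peaks, and the H3K4me1 list itself went from 20108 to 85651 peaks. At that limit the regions on H3K4me1 went from 35 to 214, a ratio of 6.11, and H3K4me1 differed more than H2A.Z. The ratio was 4.26 for the H3K4me1 list and 3.39 at the shared wide regions. Over all deposited peaks, the highest share of regions with a peak only under overexpression was the 2.79% of H3K4me1, and it was close to the 2.77% over all peaks.

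Where a mark was present in both conditions, its height was compared. Height is the reads at the highest summit of the mark over the genome average of its library, without a spike-in, and that summit may lie beside the FLAG region. H2A.Z had median heights of 5.73 in the control and 5.79 with overexpression at 108 regions, a median ratio of 0.993 (interquartile range 0.777 to 1.18). H2A.Zac had 14.4 and 8.51 at 118 regions, a ratio of 0.635 (0.550 to 0.763), and was higher with overexpression at only 6 of them. The H3K27ac heights were 18.7 and 12.6 at 91 regions, a ratio of 0.738 (0.633 to 0.915), with 20 regions higher. The H3K4me1 heights were 5.02 and 5.84 at 121 regions, a ratio of 1.09 (0.872 to 1.45), with 72 higher. Over all overexpression FLAG peaks with the mark in both conditions the ratios were 0.929, 0.646, 0.758 and 1.13 in the same order of marks, so the 2 acetylated marks had lower relative heights at these regions much as they did elsewhere.

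**Figure D5:**
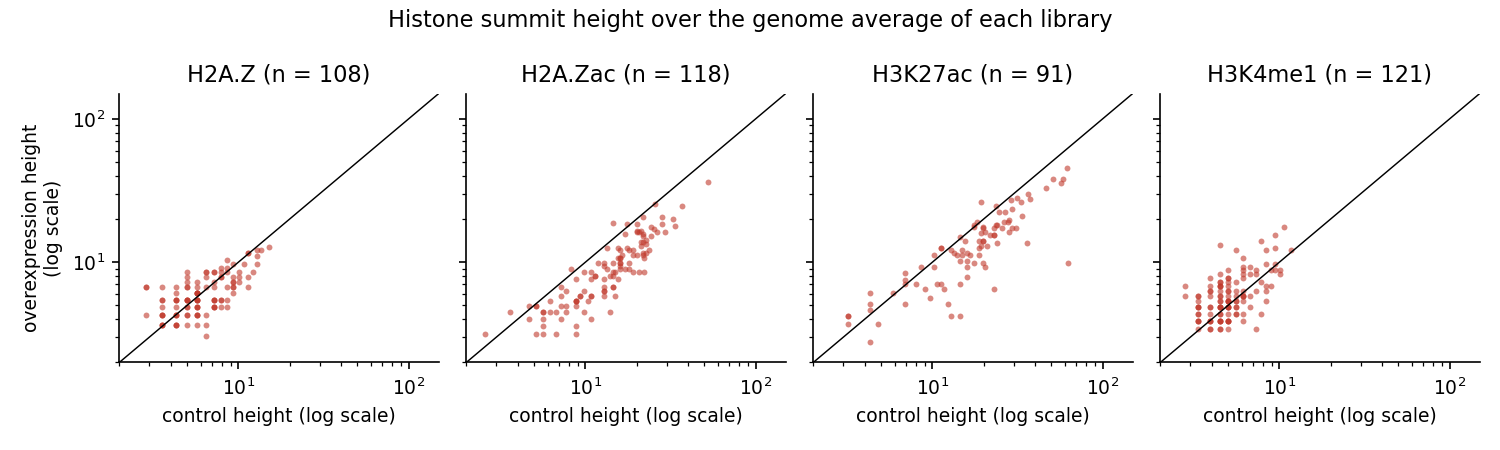
Height of each histone mark over the genome average of its library, control (horizontal, log scale) against overexpression (vertical, log scale), at the wide FLAG regions found only with overexpression that have the mark in both conditions; each point is 1 region and the line marks equal height. H2A.Zac lies below the line at all but 6 of 118 regions, and H3K4me1 lies above it at 72 of 121.

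Marks mostly came singly: 1039 of the 1301 regions on a control mark had 1 mark only, and 828 of the 1020 on an overexpression mark. In the control 605 regions had H2A.Z alone, 205 H3K4me1 alone, 137 H2A.Zac alone and 92 H3K27ac alone. The commonest combination was H2A.Z with H2A.Zac and H3K27ac, at 68 regions. With overexpression 337 had H3K4me1 alone, 193 H2A.Zac alone, 178 H3K27ac alone and 120 H2A.Z alone, and the same combination of 3 was present at 41. All 4 marks were present at 8 regions in the control, at 19 with overexpression and at 3 in both. The 8 and the 19 were 0.0715% (0.0362 to 0.141) and 0.170% (0.109 to 0.265) of the regions, a difference that was not tested. Over all overexpression FLAG peaks the shares were 0.124% and 0.130%. Of the 8673 shared wide regions on a control mark, 2189 had H2A.Z alone, 1240 H3K4me1 alone, 668 H2A.Zac alone and 361 H3K27ac alone. H2A.Z alone was thus the commonest class of control marks there too.

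Of the 10 regions with the highest −log10 q, 8 overlapped no histone peak of either condition. The strongest was at 9q31.1 (chromosome 9, 106172789 to 106173737, 949 bp), with 16 reads, a fold of 12.8 and a −log10 q of 18.9. Its nearest control FLAG peak was 880 bp away and its nearest histone peak, of control H2A.Z, 11420 bp away. The 4q21.1 region (chromosome 4, 77045972 to 77046779) had 15 reads and a fold of 11.3, and a region at 8p11.23 also had 15 reads, with a fold of 12.03. At 4q28.1 (chromosome 4, 124458888 to 124459605) and at 4q13.1 (chromosome 4, 62398001 to 62398944) there were 13 reads each.

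The other 5 of the 10 strongest regions had 10 to 12 reads. They lay at 8q24.22, 17q21.32 (chromosome 17, 45428415 to 45429247), 9q21.31 (chromosome 9, 81428586 to 81429316), 4q34.1 (chromosome 4, 174098909 to 174099657) and 3q29 (chromosome 3, 192337781 to 192338579). None of the 10 overlapped a control histone peak, and neither did 88.4% of all the overexpression-only regions. With overexpression 2 of the 10, at 8q24.22 and 17q21.32, overlapped an H3K27ac peak, each of 7 reads and with a −log10 q of 0. Local background was 1.00 to 1.26 times the genome average in all 10.

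Width and summit reads did not go together at the widest regions either. The widest, at 18q23 (chromosome 18, 77936666 to 77938668), spanned 2003 bp with 2 reads at its summit, and the next, at 9q22.31 (chromosome 9, 94801162 to 94802967), spanned 1806 bp with 2. The third, at 8q24.3, spanned 1785 bp with 5 reads and had a control FLAG peak 22 bp away. Input peaks touched 2 of the 11192 regions, at 3q22.3 (chromosome 3, 136283218 to 136283917) and 7p21.3 (chromosome 7, 10831538 to 10832313), each with 2 reads. Such peaks were rare elsewhere too, touching 14 of 22505 shared wide regions and 90 of all 551907 overexpression FLAG peaks.

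The 3 regions on all 4 marks in both conditions had 3 to 6 FLAG reads. The 6p21.31 region (chromosome 6, 35465448 to 35466262) had 6 FLAG reads. Its histone folds in control and overexpression were 5.01 and 6.04 for H2A.Z, 13.6 and 9.29 for H2A.Zac, 9.75 and 9.68 for H3K27ac, and 3.07 and 2.11 for H3K4me1. The 22q13.31 region (chromosome 22, 47030036 to 47031094) had 3 FLAG reads and lay 326 bp from a control FLAG peak. Its highest mark was H2A.Zac, with folds of 7.81 and 6.42. The 2p16.1 region (chromosome 2, 56051915 to 56052925) had 4 FLAG reads, and none of its histone folds exceeded 4.67.

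The strongest histone peaks over the set lay at regions of 4 to 7 FLAG reads. For H2A.Z this was 4p15.2 (chromosome 4, 26862419 to 26863178), with folds of 7.93 in the control and 5.75 with overexpression. For H3K27ac it was 5q33.2 (chromosome 5, 154134126 to 154134829), with a fold of 39.3 and 117 reads in the control against 4.71 and 21 reads with overexpression; a control FLAG peak lay 59 bp away. For H2A.Zac it was 22q11.22 (chromosome 22, 22293413 to 22294271), with a control fold of 26.9 and 92 reads; the nearest overexpression H2A.Zac peak was 317 bp outside the region. For H3K4me1 it was 9q34.3 (chromosome 9, 139463008 to 139463738), with folds of 3.79 in the control and 10.1 with overexpression. These 4 regions were picked as the highest of their mark, so the size of the differences there is a description only.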

How the data were processed

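The members and comparisons were chosen with earlier results of these data known. Groups followed the sample titles. The genotype labels of the overexpression libraries carry a running series of VPS names, read as VPS72, and the control H3K4me1 library, whose peak names read H3k3me1, was taken as titled. The authors deposited a MACS2 peak list per library, with FastQC, Trimmomatic and BWA also named, per the submitters' processing notes; their versions, the thresholds and the calling control were not given in the sources used here. Fold, as deposited, is a ratio of summit to local background, p and q were deposited as −log10, and the authors' integer score and summit lists were not used further; the lists of summits held the same summits in 12 of 12 libraries. The processing notes name hg19 and hg38. No peak lay past an hg19 chromosome end, and on 14 of 23 chromosomes each ChIP list passed an hg38 end, so hg19 was used.

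The whole number of reads at each summit was solved from fold and −log10 p with the MACS2 Poisson formula (tolerance 0.002); at least 99.9995% of peaks per ChIP library came out whole, against a median of at most 3.90% at other scales on a sample of 400 peaks per library. Depth assumes a genome of 2.7 Gb. On simulated data, 99.99% of 16408 peaks and 100% of 2000 overlaps were recovered. Overlap means at least 1 bp. Regions named are the 10 with the highest −log10 q, the 3 widest, those on all 4 marks in both conditions (up to 5), the strongest for each mark, those on input peaks (up to 5), and 3 on each side of the width limit. Bands came from circlize 0.4.16 and chromosome lengths from GenomeInfoDb 1.38.1; calculations used scipy 1.17.1, pandas 2.3.3 and numpy 2.4.6 under Python 3.11.15, and plots matplotlib 3.10.9. Positions relative to genes and sequences were left out, since a genome of the build was not used here.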

Additional observations from a re-analysis of the deposited data

How the results depend on the processing

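No paired analysis was possible because each group had 1 library and no result came from a test. The number of regions was 26550 at a minimum width of 600 bp, 5389 at 800 bp, 1460 at 1000 bp, 1296 with a FLAG q of 0.05 or less and 4729 with at least 3 summit reads. It stayed within 1.5 times of 11192 with no control FLAG peak within 1000 bp, with control FLAG peaks limited to a q of 0.05 or less, without input peaks and centromeric bands, and with at least 2 reads. The limits of 2 and 3 reads were chosen after seeing the data. The shares are given below as control and then overexpression, for H2A.Z, H2A.Zac, H3K27ac, H3K4me1 and any mark in turn. With histone peaks of q 0.05 or less they were 0.885% and 0.482%, 1.33% and 1.00%, 0.831% and 0.867%, 0.313% and 1.91%, and 1.93% and 2.89%. With the FLAG summit inside the histone peak they were 2.72% and 0.885%, 1.58% and 1.42%, 1.11% and 1.16%, 1.10% and 1.81%, and 5.00% and 4.15%. With a FLAG q of 0.05 or less they were 11.3% and 4.17%, 6.25% and 5.79%, 4.55% and 4.78%, 5.32% and 6.94%, and 18.4% and 14.8%. At 1000 bp those outside the original interval were 9.18% and 2.88% for H2A.Z, 3.22% for control H2A.Zac, 2.47% and 3.70% for H3K27ac, 3.63% for control H3K4me1, and 13.4% and 10.2% for any mark. With at least 2 reads they were 7.71% for control H2A.Z, 3.23% for control H2A.Zac, and 12.5% and 9.77% for any mark. The share of regions on a listed H2A.Z peak stayed higher in the control under each of these settings. For any mark, the order of the conditions was the other way round with histone peaks of q 0.05 or less. Leaving out input peaks and centromeric bands moved no share beyond its interval. At 3.07 M FLAG reads, 1 read was enough for a listed peak, which limits what a missing control peak says.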

Other observations

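The region with the most FLAG reads was chosen after its values were seen. It lay at 4p16.1 (chromosome 4, 9273493 to 9274418) and had 30 summit reads at a local background of 36.5 times the genome average, which gave a fold of 2.38. Its nearest control FLAG peak was 57179 bp away. Of the 29 regions with 10 or more reads, 13 had a background of at least 3 times the genome average and 12 lay on a histone peak. A background under 1.5 times the average was found at 10 of the 29, and 8 of those lay on no histone peak in either condition. Over all the overexpression-only regions 82.7% lay on none. The gap from the 29 regions to the nearest control FLAG peak ranged from 82 to 57179 bp, with a median of 3642 bp.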
